A study of Rattus norvegicus with 18 samples.

Results

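Liver taken after 16 weeks of diethylnitrosamine was compared with liver taken after 5 weeks of the same treatment, in 6 of the 18 arrays of a rat time course. The arrays were chosen by their titles alone, 3 of each time, and all 31042 probe sets other than controls entered the test. The rats were Sprague-Dawley, RNA came from the middle of the right liver lobe, and an Affymetrix whole-genome rat expression array read each RNA preparation. The labels give the same age, 12 weeks, for every sample, so how age differed between the 2 times cannot be read from them, and time on treatment and age cannot be told apart. The sources used here do not state sex, dose or route. Both groups were treated, and untreated liver was not used, so a difference between them is a difference within treated liver. The labels call the 3 arrays of a time technical replicates, so the p values below reflect array-to-array spread alone, and that spread may be technical with no difference between animals in it.

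Diethylnitrosamine is converted by hepatic cytochrome P450 enzymes to an agent that alkylates DNA, and repeated exposure of rodents leads through foci of altered hepatocytes to fibrosis and liver tumours. Altered foci are recognised by placental glutathione transferase and gamma-glutamyl transferase, and many carry an active antioxidant programme driven by the transcription factor NRF2. Around them, bile duct-like cells can multiply, stellate cells turn into matrix-producing myofibroblasts, and hepatocytes can lose part of their metabolic programme. In male rats, pulses of growth hormone acting through STAT5B maintain a further group of hepatocyte genes, among them Cyp2c11 and the alpha2u-globulins.

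The deposited signals were linear intensities. Their median per array was 180 ± 8.43 at 16 weeks and 136 ± 5.44 at 5 weeks (SD, n = 3 each), and their sum was 22315328 to 22605032 at 16 weeks and 24493281 to 24597984 at 5 weeks. Arrays of the same time correlated at 0.984 to 0.988 and arrays of different times at 0.908 to 0.913, over the log2 values of 18625 probe sets. The ratio of 3' to 5' probe signal, a measure of RNA integrity and labelling, was 1.26 ± 0.0219 at 16 weeks and 1.48 ± 0.0293 at 5 weeks for Gapdh, and for beta-actin it was 2.32 ± 0.0256 at 16 weeks and 3.52 ± 0.260 at 5 weeks (SD, n = 3). These ratios and the median signal differed between the 2 times that every result below compares, and their part in the results was not tested. Hepatocyte markers had high signals at both times. Albumin (Alb), the main plasma protein, had signals of 30442, 29720 and 27298 at 16 weeks, against 28193, 32912 and 32105 at 5 weeks. The 2 times overlapped, and the difference did not pass the test (log2 change -0.090 ± 0.097, adjusted p = 0.542).

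Many genes of bile ducts, of matrix, of mast cells and of the antioxidant response were higher at 16 weeks than at 5 weeks, and many genes of drug, bile acid, amino acid and lipid metabolism were lower. Changes are given as log2 of (signal + 16) at 16 weeks minus 5 weeks, so that 1 is a doubling. A gene was called with a limma adjusted p under 0.05 and a change of at least 2-fold, and "rose" and "fell" are used only for called genes. Of 13901 genes, 1072 rose (7.71%) and 451 fell (3.24%). By probe set, 2161 of 31042 were higher (6.96%) and 695 lower (2.24%), 9.20% in all. The 3 arrays of one time lay entirely on 1 side of the other 3 in 55.4% of genes, so a lack of overlap alone sets few genes apart. At 8-fold or more, 56 genes rose and 26 fell.

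The split between higher and lower calls depends on how the arrays are scaled to each other. As deposited, the median change over all genes was 0.15 and 70.4% of called genes were higher. After quantile normalization the median was -0.0037, 737 genes were higher (5.30%) and 480 lower (3.45%), and 60.6% of called genes were higher. After centring every array on its median it was -0.22, 585 genes were higher (4.21%) and 1029 lower (7.40%), and 36.3% were higher. Under all 3 scalings 568 genes were higher (4.09%) and 353 lower (2.54%). Counts of list members are therefore given below as deposited, with the counts after quantile normalization and median centring beside them where they differ. These counts are to be read beside the shares of all genes, 7.71% called higher and 3.24% called lower as deposited. Of the 1072 genes that rose, 523 had a 5-week mean signal below 99.8, the 40th percentile of all probe sets, and 138 were below it at both times, so the size of their change depends on the constant of 16 added to every signal.

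**Figure D1:**
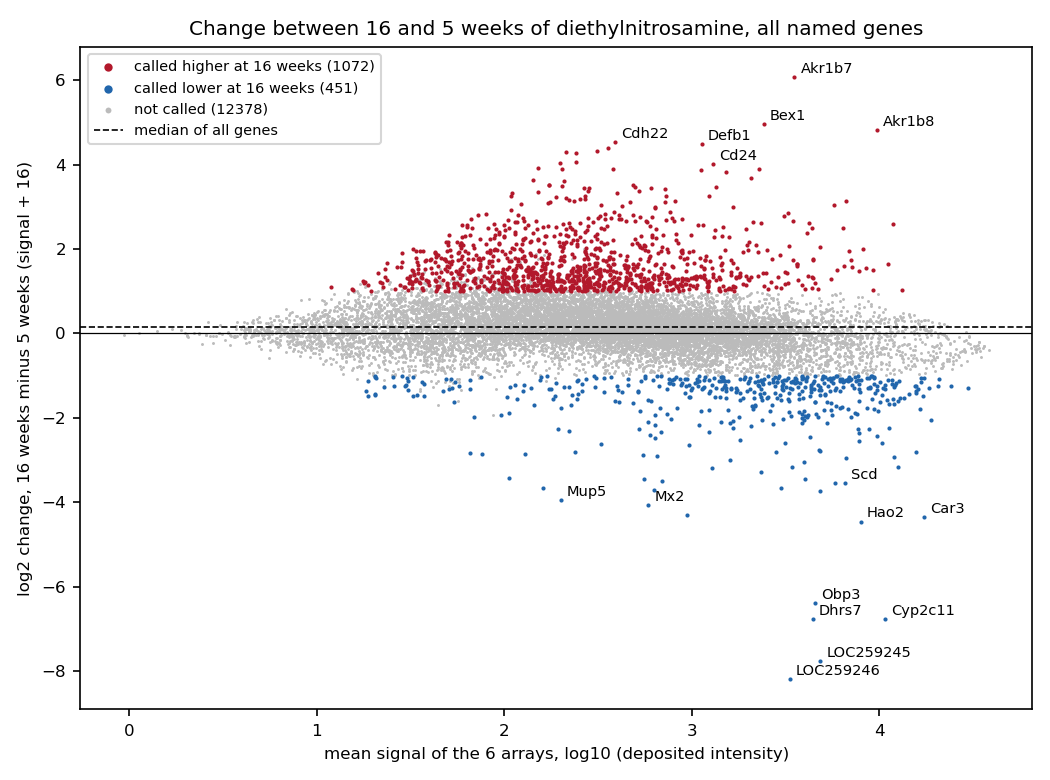
Log2 change at 16 weeks minus 5 weeks of diethylnitrosamine (vertical) against the log10 mean signal of the 6 arrays (horizontal), 1 point per gene. The 1072 genes called higher are red, the 451 called lower blue, the rest grey, and the dashed line is the median of all genes at 0.15. Higher calls lie mostly at low and middle signals, and the lowest points, at high mean signals, include Cyp2c11, Obp3 and Dhrs7.

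The gene with the highest change was Akr1b7, an aldo-keto reductase. Its signals were 7121, 6819 and 6950.5 at 16 weeks, against 87.6, 86.9 and 88.3 at 5 weeks. All 3 arrays at 16 weeks stood far above the 3 at 5 weeks, which lay close together (log2 change 6.07 ± 0.068, adjusted p = 8.14e-06). Akr1b8, an aldo-keto reductase that detoxifies aldehydes, had 18955, 18426 and 18597 at 16 weeks, against 639.9, 663 and 642 at 5 weeks (log2 change 4.81 ± 0.068, adjusted p = 1.22e-05). It was bright in every array at 16 weeks. Bex1, a small X-linked adaptor protein known mainly from the nervous system, had 4729, 4927 and 4438 at 16 weeks, against 133, 175 and 104 at 5 weeks (log2 change 4.97 ± 0.18, adjusted p = 0.000101). The 2 other probe sets of Bex1 rose as well, by 2.82 and 2.00.

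Other genes of the leading 12 encode proteins of epithelial junctions and surfaces. Cldn4, a tight junction claudin, had 419.9, 467 and 541 at 16 weeks, against 13.1, 6.57 and 8.67 at 5 weeks (log2 change 4.27 ± 0.14, adjusted p = 9.01e-05). Its 5-week signals were at the bottom of the array's range, and the 16-week signals were all well apart from them. Cldn7, another claudin, changed by 4.30 ± 0.17, the cadherin gene Cdh22 by 4.54 ± 0.30, and the surface glycoprotein gene Cd24 by 4.02 ± 0.11. The neurofilament genes Nefl and Nefm, which encode the light and medium chains of neuronal intermediate filaments, changed by 4.40 ± 0.35 and 4.03 ± 0.22. A second probe set of Nefl rose by 3.23. Defb1, an antimicrobial beta-defensin of epithelia, changed by 4.49 ± 0.11, and the neutrophil-attracting chemokine Cxcl6 by 4.31 ± 0.099. Acot1, a cytosolic thioesterase that releases fatty acids from coenzyme A, had 444, 463 and 497 at 16 weeks, against 28.2, 12.4 and 3.08 at 5 weeks (log2 change 4.07 ± 0.31, adjusted p = 0.000627). Its 5-week arrays differed among themselves at low signal, and all 3 lay far below the 16-week arrays.

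The 12 genes with the largest fall were led by male-biased liver genes. Cyp2c11, the main male-specific steroid hydroxylase of rat liver, had 186, 163 and 187.5 at 16 weeks, against 20936, 21165 and 21684 at 5 weeks. It was among the brightest genes at 5 weeks and lower in all 3 arrays at 16 weeks (log2 change -6.77 ± 0.085, adjusted p = 9.72e-06). Obp3, a lipocalin of the alpha2u-globulin family, had 84.3, 95.3 and 93.3 at 16 weeks, against 8836, 9478.5 and 8664.5 at 5 weeks (log2 change -6.40 ± 0.084, adjusted p = 9.72e-06), and its second probe set (log2 change -6.77) fell as well. Mup5, a related lipocalin gene, changed by -3.95 ± 0.29. LOC259246 and LOC259245, provisional symbols outside the naming rule and named here after their values were seen, had larger falls than Cyp2c11. LOC259246 had 5.73, 8.03 and 6.57 at 16 weeks, against 6849, 6705 and 6364 at 5 weeks (log2 change -8.19 ± 0.080, adjusted p = 7.5e-06), the lowest change of all genes as deposited. LOC259245 had 5.83, 45.1 and 47.7 at 16 weeks, against 9641, 7946 and 11350 at 5 weeks (log2 change -7.77 ± 0.45, adjusted p = 0.000293).

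Metabolic enzymes filled much of the rest of that group. Hao2, a peroxisomal hydroxyacid oxidase, had 663, 697 and 673 at 16 weeks, against 15393, 15476 and 14870 at 5 weeks (log2 change -4.46 ± 0.070, adjusted p = 1.74e-05). Car3, carbonic anhydrase 3, had 1697, 1642 and 1469 at 16 weeks, against 32133, 34897 and 31691 at 5 weeks (log2 change -4.35 ± 0.092, adjusted p = 4.93e-05). Both sets of arrays were tight and far apart, and a second Car3 probe set fell by 5.40. Cyp2a2, a male-biased P450, changed by -3.73 ± 0.081 and Scd, the stearoyl-CoA desaturase that makes monounsaturated fat, by -3.54 ± 0.10. Avpr1a, the vasopressin receptor of hepatocytes, changed by -3.67 ± 0.14. Sez6, a membrane protein studied in neurons, changed by -3.71 ± 0.23, and Stac3, an adaptor known from muscle excitation, by -4.30 ± 0.43.

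2 genes among these 12 rest on 1 of their probe sets. Dhrs7, a short-chain dehydrogenase, changed by -6.77 ± 0.24 at its brightest probe set, while its other probe set had mean signals of 1989 at 16 weeks and 1725 at 5 weeks and was not called (log2 change 0.21, adjusted p = 0.158). Mx2, an interferon-induced GTPase, had 49.4, 44.4 and 62.0 at 16 weeks, against 1074, 1148 and 1135 at 5 weeks (log2 change -4.07 ± 0.12, adjusted p = 6.4e-05). Its other probe set was not called, with means of 433 at 16 weeks and 534 at 5 weeks (log2 change -0.29). Over all 169 named genes, 30 had another probe set above the 40th percentile, 34 probe sets in all. Of these, 0 carried an opposite call, and 9 had no call where the tested one had one. Genes of large families such as the P450s, the aldo-keto reductases, the alpha2u-globulins and the mast cell proteases may share signal between near-identical copies, so which copy changed is uncertain.

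**Figure D2:**
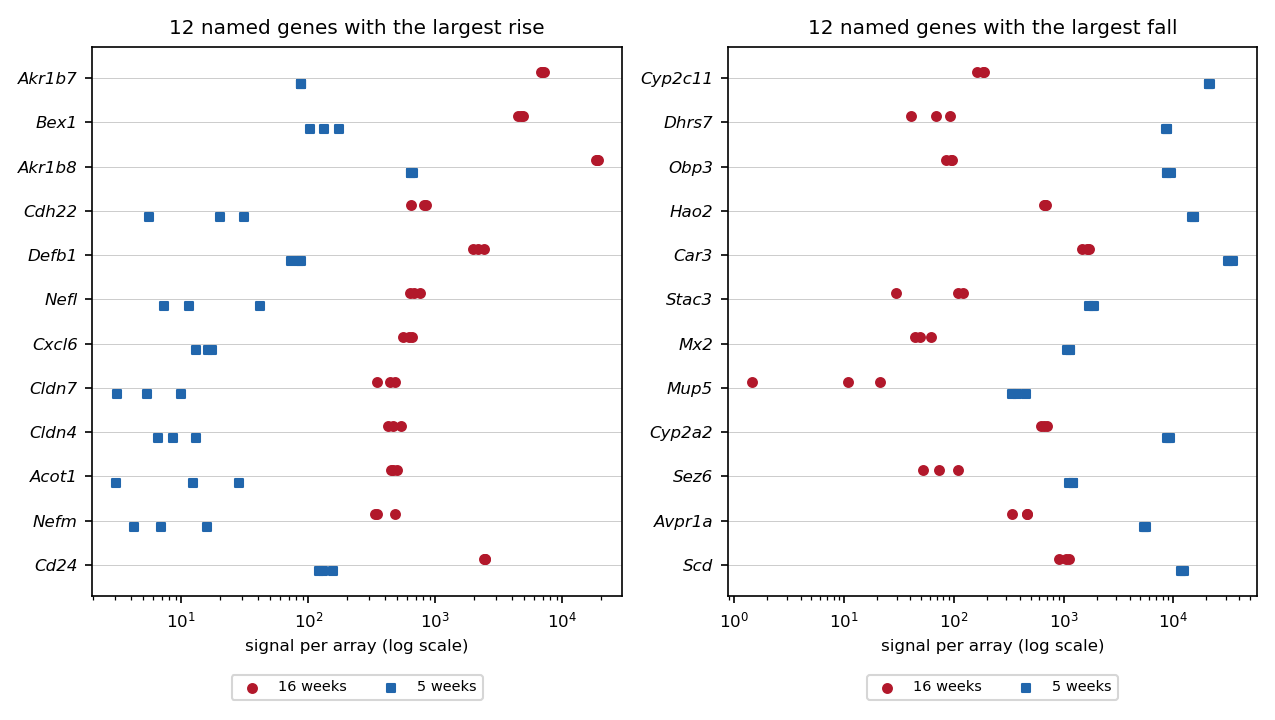
Signal per array on a log scale for the 12 named genes with the largest rise (left panel) and the 12 with the largest fall (right panel), with 16-week arrays as red circles and 5-week arrays as blue squares. In each of the 24 genes the 3 arrays of one time lie on 1 side of the 3 of the other, a condition that the naming rule set.

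Genes tied to the growth hormone axis moved in both directions. Of 24 measured genes, 9 fell and 6 rose (10 and 6 after quantile normalization, 13 and 4 after median centring), with a median change of -0.69 against 0.15 over all genes. Akr1b7 above is one of the 6. The genes that fell included male-biased ones, namely Cyp2c11, Obp3 and Cyp2a2 above, Cyp2c13 (-1.78) and Cyp3a2, a testosterone hydroxylase. Cyp3a2 had 2598, 2537 and 2336 at 16 weeks, against 21755, 22769 and 23241 at 5 weeks (log2 change -3.17 ± 0.080, adjusted p = 5.43e-05). Ghr, the growth hormone receptor, fell by 1.35, Igfals, which stabilises circulating IGF1, by 2.00, and the repressor Bcl6 by 1.29.

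The 6 members that rose included A1bg, Prlr and Cux2, which are female-biased in rodent liver. A1bg, a plasma glycoprotein of the immunoglobulin superfamily, had 1018, 1039 and 1039.9 at 16 weeks, against 155, 136 and 206 at 5 weeks (log2 change 2.55 ± 0.15, adjusted p = 0.000316). All 16-week arrays were several times brighter than any 5-week array. Cyp2c12, the main female-specific P450 of rat liver, had 17435, 16142 and 16027 at 16 weeks, against 12378, 12674 and 11453 at 5 weeks and was not called (log2 change 0.44 ± 0.083, adjusted p = 0.0128). It was bright at both times, with no overlap between them. The prolactin receptor Prlr changed by 1.32 ± 0.11 and the repressor Cux2 by 1.76 ± 0.20. Igfbp2, an IGF-binding protein, changed by 2.10 ± 0.083 and Igfbp1 by 1.32 ± 0.086. STAT5 binds the palindrome TTCNNNGAA, which was searched on both strands in the 250 bases before each gene's start. It was found in 8.19% of 27457 genes and in 3 of 22 genes of the list that have a promoter in the table, among them A1bg and Prlr. The A1bg promoter (RefSeq, GRCr8, chr7:94387497-94387746, minus strand) is shown because A1bg moved opposite to Cyp2c11, with the match in capitals.

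A1bg: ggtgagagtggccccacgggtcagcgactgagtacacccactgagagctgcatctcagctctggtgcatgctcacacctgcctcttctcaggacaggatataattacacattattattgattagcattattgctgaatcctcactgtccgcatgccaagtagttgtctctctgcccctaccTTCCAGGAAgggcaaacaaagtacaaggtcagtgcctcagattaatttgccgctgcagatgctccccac

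A match is a description of these letters and says nothing of whether the factor binds.

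Drug-metabolising cytochrome P450 genes, the enzymes that oxidise drugs, steroids and carcinogens, were mostly lower at 16 weeks. Of 29 measured, 15 fell and 2 rose (13 and 2 after quantile normalization, 21 and 2 after median centring), with a median of -1.07. Cyp2d3 changed by -2.94 ± 0.071 and Cyp2e1, which activates diethylnitrosamine, by -1.25 ± 0.071. Members of the CYP1 family, which respond to the aryl hydrocarbon receptor, did not move together. Cyp1a2, the constitutive hepatocyte member, had 3024, 2768.5 and 2514.5 at 16 weeks, against 21593, 20136 and 21635 at 5 weeks (log2 change -2.93 ± 0.097, adjusted p = 9.01e-05). Cyp1a1, the inducible member, had 1197, 1171 and 1218 at 16 weeks, against 311, 301 and 294 at 5 weeks (log2 change 1.93 ± 0.070, adjusted p = 0.000101). Cyp1a1 was higher in all 3 arrays at 16 weeks and Cyp1a2 was lower in all 3. Cyp1b1, found mainly outside hepatocytes, changed by 1.44 ± 0.14.

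Among 26 conjugating enzymes 5 fell and 2 rose (5 and 2, and 6 and 2, under the other scalings), with a median of -0.23. The sulfotransferases did not share a direction. Sult1e1, the estrogen sulfotransferase, had 3884.5, 3939.5 and 3933 at 16 weeks, against 27383, 27213 and 28186 at 5 weeks (log2 change -2.81 ± 0.068, adjusted p = 5.08e-05). Sult1c2 changed by -3.45 ± 0.087 and Sult1c3 by -2.61 ± 0.085, whereas Sult2a2, which sulfates steroids and bile acids, changed by 2.62 ± 0.087. Nat8, an acetyltransferase of the mercapturate pathway, changed by -2.91 ± 0.11 and Gsta3, an alpha-class glutathione transferase, by 2.05 ± 0.068.

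Bile acid synthesis and transport had the lowest median, -1.22, of the 41 lists, which were chosen with earlier results of these data known. Of 23 genes 13 fell and 2 rose (11 and 0 after quantile normalization, 14 and 0 after median centring). Cyp7a1, the hydroxylase that sets the rate of the classical pathway, had 661, 733 and 636 at 16 weeks, against 6426, 6009 and 6017 at 5 weeks (log2 change -3.16 ± 0.087, adjusted p = 6.22e-05). The arrays of the 2 times were far apart. Among enzymes, Acox2, a peroxisomal oxidase of the side chain, changed by -2.59 ± 0.074, Slc27a5, which attaches coenzyme A to bile acids, by -2.42 ± 0.068, and Baat, which joins them to taurine or glycine, by -1.53 ± 0.067. Among transporters, the uptake carriers Slc10a1, Slco1a4, Slco1b2 and Slco1a1 changed by -2.24 ± 0.068, -2.46 ± 0.072, -1.80 ± 0.14 and -1.72 ± 0.083, and the canalicular export pump Abcb11 by -1.22 ± 0.072. Nr1h4, the bile acid receptor FXR, had 1017.5, 868 and 919 at 16 weeks, against 3254, 3362 and 3268 at 5 weeks (log2 change -1.80 ± 0.087, adjusted p = 0.000186). The sterol exporters Abcg5 (1.24 ± 0.15) and Abcg8 (1.15 ± 0.19) were the 2 that rose, and neither was called after quantile normalization or median centring.

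Several enzymes of amino acid catabolism fell, and most core enzymes of the urea cycle were not called. Of 34 genes 14 fell and the other 20 were not called (9 and 23 fell under quantile normalization and median centring), with a median of -0.84. Gnmt, the glycine methyltransferase that consumes S-adenosylmethionine, had 3345, 2941 and 2764 at 16 weeks, against 14586, 14423 and 14560 at 5 weeks (log2 change -2.27 ± 0.095, adjusted p = 0.000138). Prodh, proline dehydrogenase, changed by -2.35 ± 0.17, Kynu, a kynureninase of tryptophan breakdown, by -1.92 ± 0.079, and Otc, the urea cycle carbamoyltransferase, by -1.31 ± 0.071. The other core enzymes of the urea cycle were not called, with log2 changes of -0.33 ± 0.067 for Cps1, -0.25 ± 0.067 for Ass1, -0.24 ± 0.067 for Arg1 and 0.24 ± 0.080 for Asl. Oat, an ornithine aminotransferase of pericentral hepatocytes, changed by -1.95 ± 0.15. Of 12 pericentral genes that depend on Wnt signalling, 5 fell (4 and 6 under the other scalings), with a median of -1.06. Besides Oat, Cyp1a2 and Cyp2e1 these were Rgn, a calcium-binding lactonase (-1.38 ± 0.075), and Lect2, a secreted hepatokine (-1.31 ± 0.080). The other 7 were not called. Their log2 changes were negative for Glul (-0.083), Axin2 (-0.26), Cldn2 (-0.83), Tbx3 (-0.88) and Slc1a2 (-1.70). They were positive for Nkd1 (0.68) and Ahr (0.75).

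Lipid synthesis genes fell at 16 weeks in both the fatty acid and the sterol branch. Of 32 genes 13 fell and 19 were not called (9 and 22 fell under quantile normalization and median centring), with a median of -0.90. Scd had 1049, 908 and 1116 at 16 weeks, against 12467, 12016 and 11646 at 5 weeks (log2 change -3.54 ± 0.10, adjusted p = 6.4e-05). Fasn, the fatty acid synthase, had 1474, 1481.5 and 1657.5 at 16 weeks, against 6295, 6448.5 and 6531 at 5 weeks (log2 change -2.05 ± 0.082, adjusted p = 0.000119). All 16-week arrays of both genes lay below all 5-week arrays. The desaturases Fads1 and Fads2 changed by -1.99 ± 0.085 and -2.25 ± 0.078, and Srebf1, the transcription factor that drives lipogenesis, by -1.95 ± 0.069. On the sterol branch Hmgcs1 changed by -1.30 ± 0.080, Fdft1 by -1.24 ± 0.077 and Cyp51 by -1.27 ± 0.073.

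In fatty acid oxidation and ketogenesis 7 of 25 genes fell and 1, Acot1, rose (6 and 1, and 11 and 1, under the other scalings), with a median of -0.48. Ehhadh, a bifunctional enzyme of peroxisomal oxidation, had 1383, 1143 and 1081 at 16 weeks, against 8647, 8352 and 8196 at 5 weeks (log2 change -2.80 ± 0.11, adjusted p = 0.000123). Acsl1, which activates long-chain fatty acids, changed by -1.41 ± 0.069 and Hadh of mitochondrial oxidation by -1.55 ± 0.068. The ketone body enzyme Bdh1 changed by -1.54 ± 0.070.

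Glucose handling and glycolysis had list medians of opposite sign. Of 17 genes of gluconeogenesis and glucose handling 7 fell and 1 rose (6 and 1, and 8 and 1, under the other scalings), with a median of -0.61. Pklr, the liver pyruvate kinase, had 520.2, 519 and 521 at 16 weeks, against 3044, 2976 and 3245 at 5 weeks (log2 change -2.53 ± 0.073, adjusted p = 6.4e-05). The 16-week arrays all lay below the 5-week arrays, and G6pc1, which releases glucose from hepatocytes, changed by -1.76 ± 0.070. Ppargc1a, a coactivator of gluconeogenesis and mitochondrial genes, changed by 1.90 ± 0.34 from low signal, 96.9 ± 17.5 at 16 weeks and 16.1 ± 15.5 at 5 weeks (SD, n = 3). Of 20 glycolytic isozymes 7 rose and 13 were not called (6 and 1 rose under quantile normalization and median centring), with a median of 0.58. Hk1, a hexokinase of most tissues other than hepatocytes, had 714, 671 and 615 at 16 weeks, against 289, 238 and 259 at 5 weeks (log2 change 1.30 ± 0.11, adjusted p = 0.000808). The muscle-type pyruvate kinase Pkm changed by 1.23 ± 0.10, the phosphofructokinase Pfkp by 1.29 ± 0.091, Aldoc by 1.49 ± 0.20 and Ldhb by 1.26 ± 0.10. Aldoc was the 1 member called after median centring.

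Plasma proteins made by hepatocytes gave calls that depended on the scaling. Of 27 complement and coagulation genes 9 fell as deposited, 2 after quantile normalization and 15 after median centring, with a median of -0.68. C6 of the membrane attack complex had 2363, 2180.3 and 2395 at 16 weeks, against 9466, 9413 and 7894 at 5 weeks (log2 change -1.94 ± 0.10, adjusted p = 0.000249). Mbl2, a mannose-binding lectin, changed by -1.83 ± 0.068, and these were the 2 called under every scaling. Of 25 other secreted proteins 4 apolipoproteins or carriers fell (1 and 13 under the other scalings), with a median of -0.64. Apoa4 changed by -1.64 ± 0.067 and Apoa2 by -1.24 ± 0.081, the second not called after quantile normalization. Of 23 acute phase proteins 3 fell, Serpina3m, Itih1 and Serpina3c, and 1 rose, the iron-carrier scavenger Lcn2 (2 and 3 after quantile normalization, 5 and 1 after median centring), with a median of -0.42. Lcn2 had 2305, 2297 and 2172 at 16 weeks, against 240.0, 214 and 213 at 5 weeks (log2 change 3.25 ± 0.083, adjusted p = 5.43e-05).

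Hepatocyte transcription factors were largely not called. Of 20 measured 2 fell, Nr1h4 above and Rxra, the partner of FXR and other nuclear receptors, and 1 rose, the inflammatory factor Cebpd. Under the other scalings the counts were 3 and 1, and 5 and 1, and the median as deposited was -0.19. Over all genes 3.24% fell and 7.71% rose. Hnf4a, the central factor of hepatocyte identity, had 928, 824 and 909.7 at 16 weeks, against 573, 544 and 480.5 at 5 weeks (log2 change 0.72 ± 0.10, adjusted p = 0.00483), a difference in level below 2-fold with no overlap between times. Rxra was at the edge of the threshold (-1.01 ± 0.070). It was not called without 5-week array 1 or 16-week array 2 (-0.99 in both), nor after quantile normalization, and its second probe set was not called. Without 5-week array 1, 16-week array 1 or 16-week array 3, 2 of the 20 genes rose.

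The summed signal of the 6 defining hepatocyte markers (Alb, Apoa1, Ttr, Serpina1, Tf and Hnf4a) was 131978 to 143113 at 16 weeks and 155106 to 165966 at 5 weeks, and 0 of 6 were called by limma. Ttr, Serpina1 and Tf were lower and Hnf4a higher by less than 2-fold, with adjusted p of 0.00948, 0.0254, 0.0446 and 0.00483. In liver tissue fewer cells of a type and less RNA per cell cannot be told apart. Markers of other cell types moved at the same time, as given with their gene groups below, and their part in the lower signals of hepatocyte genes was not tested.

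**Figure D3:**
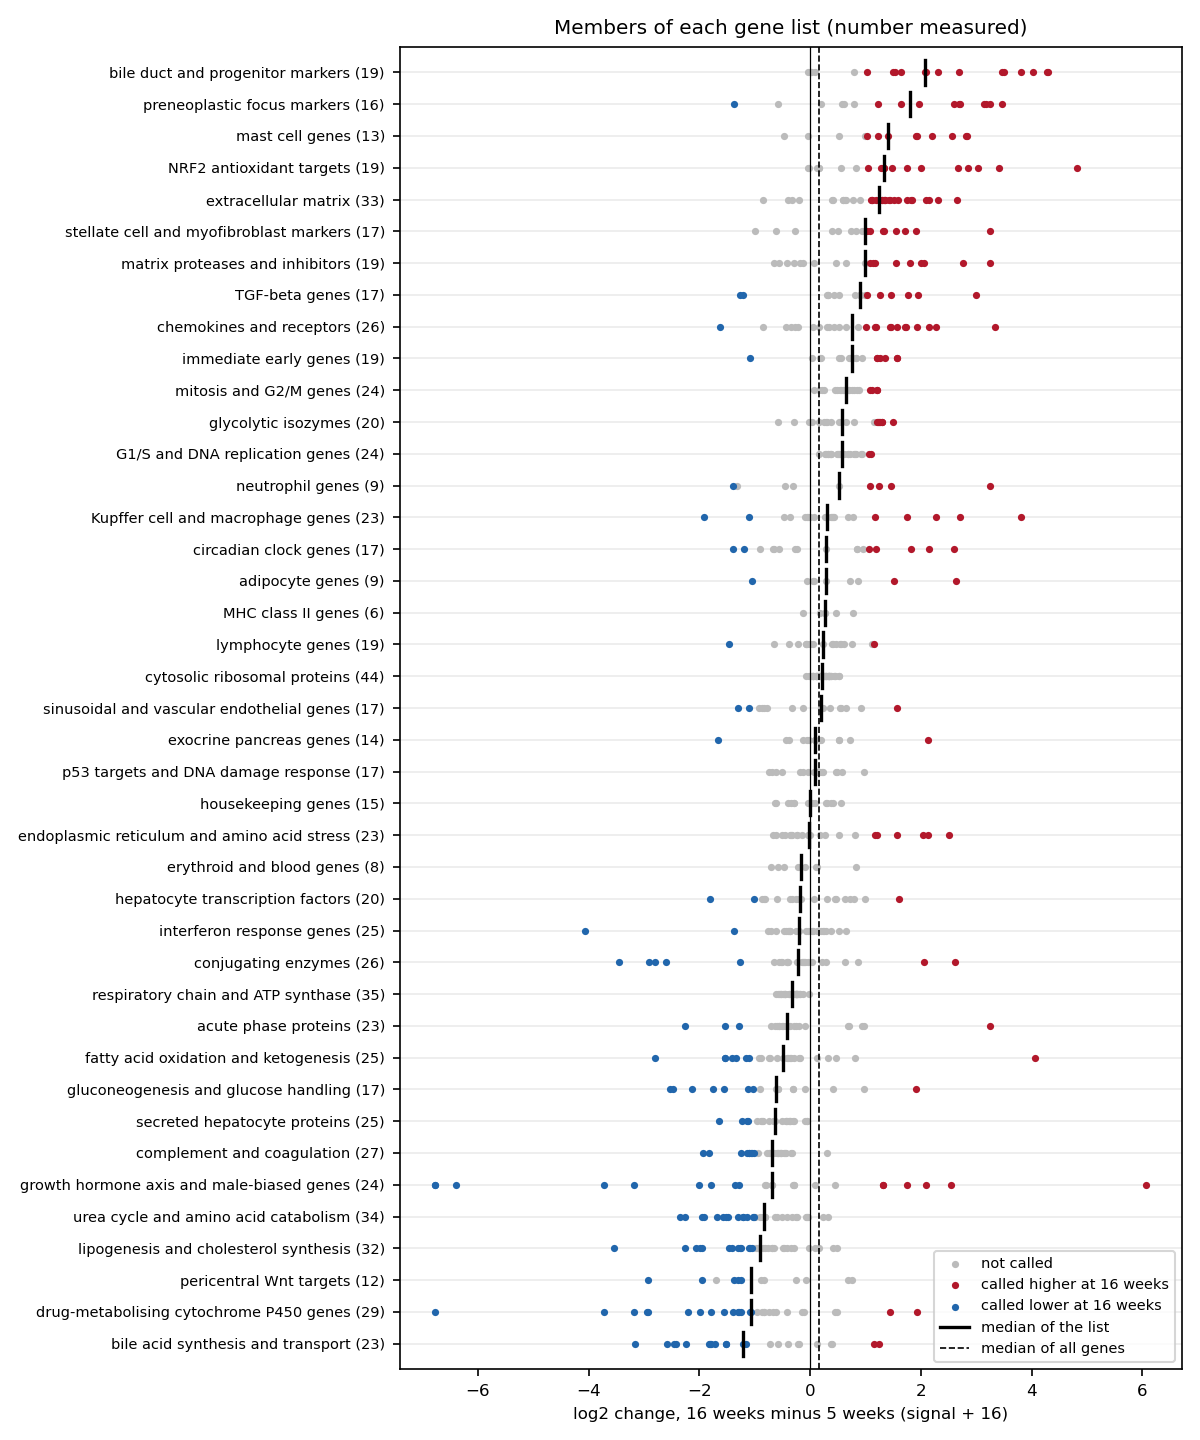
Log2 change at 16 weeks minus 5 weeks for the measured members of 41 gene lists, 1 point per gene, with the number measured in brackets. Red points were called higher, blue lower, grey not called, short black bars mark list medians and the dashed line the median of all genes at 0.15. The list medians run between 2.08 for bile duct and progenitor markers and -1.22 for bile acid synthesis and transport.

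Antioxidant targets of NRF2 were mostly higher at 16 weeks. Of 19 genes 12 rose and 7 were not called (12 and 8 rose under quantile normalization and median centring), with a median of 1.33. The 7 not called were Taldo1 (0.83), Tkt (0.56), Ephx1 (0.17), Me1 (0.17), Abcc2 (0.12), Prdx1 (-0.019) and Osgin1 (-0.045). Nqo1, a quinone reductase, had 13274, 12842 and 13299 at 16 weeks, against 3421, 3132 and 3247.5 at 5 weeks (log2 change 2.00 ± 0.074, adjusted p = 0.000106). Aldh3a1, an aldehyde dehydrogenase, had 1408, 1309 and 1273 at 16 weeks, against 88.4, 131 and 116 at 5 weeks (log2 change 3.41 ± 0.14, adjusted p = 0.00014). The arrays of each time lay together and the times were wide apart for both genes. Genes of glutathione supply rose as well. Slc7a11, the cystine importer, changed by 3.03 ± 0.17, Gclc and Gclm, the catalytic and modifier subunits of glutamate-cysteine ligase, by 1.29 ± 0.070 and 1.48 ± 0.069, and Gsr, which regenerates glutathione, by 1.05 ± 0.095. Srxn1, which repairs oxidised peroxiredoxins, changed by 2.86 ± 0.070, the thioredoxin reductase Txnrd1 by 1.34 ± 0.085, Hmox1, which degrades haem, by 1.33 ± 0.078, and the conjugate exporter Abcc3 by 2.67 ± 0.13. Gclc was not called after median centring (0.92).

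NRF2 binds antioxidant response elements with the core TGACNNNGC, and the related AP-1 site is TGACTCA; one element can hold both. Within the 250 bases before the start and on both strands, TGACNNNGC was found in 11% of 27457 genes and in 5 of 14 list genes with a promoter in the table, of which Gclm and Txnrd1 were called. TGACTCA was found in 4.42% of genes and in 4 of the same 14, of which Srxn1 was called. Me1, Prdx1 and Ephx1 held both motifs and were not called. Elements further upstream lie outside this window. The promoters of Gclm (RefSeq, GRCr8, chr2:213031885-213032134, plus strand) and Srxn1 (chr3:161064562-161064811, plus strand) are shown as 2 members that rose and hold a match, which is in capitals.

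Gclm: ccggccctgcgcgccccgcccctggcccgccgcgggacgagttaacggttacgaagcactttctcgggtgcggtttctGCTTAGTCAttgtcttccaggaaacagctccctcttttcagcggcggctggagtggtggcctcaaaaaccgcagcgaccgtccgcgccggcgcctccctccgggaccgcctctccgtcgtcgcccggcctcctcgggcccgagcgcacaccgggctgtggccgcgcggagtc

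Srxn1: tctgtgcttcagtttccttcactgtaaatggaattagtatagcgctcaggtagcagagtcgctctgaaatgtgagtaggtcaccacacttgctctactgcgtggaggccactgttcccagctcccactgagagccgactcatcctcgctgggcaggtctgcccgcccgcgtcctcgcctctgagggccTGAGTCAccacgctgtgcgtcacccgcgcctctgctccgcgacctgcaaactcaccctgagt

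Both matches read in the reverse direction. The Gclm match lies between 172 and 164 bases before the start and the Srxn1 match between 62 and 56 bases before it.

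Markers of preneoplastic foci rose in 10 of 16 measured genes and fell in 1 (9 and 1 under either other scaling), with a median of 1.80. Gstp1, the placental glutathione transferase used to count foci in rat liver, had 21151, 20145 and 19687 at 16 weeks, against 3417, 3388 and 3277 at 5 weeks (log2 change 2.59 ± 0.073, adjusted p = 6.4e-05). Ggt1, gamma-glutamyl transferase, had 1356, 1559 and 1476 at 16 weeks, against 132, 129.8 and 199.9 at 5 weeks (log2 change 3.15 ± 0.18, adjusted p = 0.000275). Both genes separated the times completely, and Gstp1 reached the brightest range of the array, where saturation was not tested. Igf2, a fetal growth factor, had 509.5, 507 and 463 at 16 weeks, against 17.5, 70.6 and 44.3 at 5 weeks (log2 change 3.18 ± 0.35, adjusted p = 0.00205), from low and scattered 5-week signals. Gpc3, an oncofetal glypican, changed by 2.70 ± 0.088, the surface receptor Cd44 by 1.96 ± 0.092, and the reductases Akr7a3 and Akr1b10 by 1.64 ± 0.091 and 1.23 ± 0.25. Krt19, Prom1 and Lcn2 are also in other lists here. Afp, alpha-fetoprotein, had 1812, 1714 and 1947 at 16 weeks, against 1541, 1598 and 1632 at 5 weeks, which was not called (log2 change 0.19 ± 0.082, adjusted p = 0.139). Igf2bp3, an oncofetal RNA-binding protein, had a log2 change of -1.38 ± 0.14, adjusted p = 0.00159. Its other probe sets were lower by 1.49, which was called, and had a change of -0.76, which was not.

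Bile duct and progenitor markers had the highest median, 2.08, of the 41 lists, which were chosen with earlier results of these data known. Of 19 genes 14 rose and 5 were not called (14 and 13 rose under quantile normalization and median centring). Krt19, the keratin of bile duct cells, had 2622, 2430.5 and 2364 at 16 weeks, against 162, 258 and 215 at 5 weeks (log2 change 3.47 ± 0.17, adjusted p = 0.000192). Spp1, osteopontin, made by duct cells and macrophages, had 2972, 3021 and 2592 at 16 weeks, against 208, 202 and 157 at 5 weeks (log2 change 3.82 ± 0.13, adjusted p = 9.03e-05). Every 16-week array was far brighter than every 5-week array for both. Krt7, another duct keratin, changed by 3.51 ± 0.21, the surface proteins Prom1 and Epcam by 2.68 ± 0.12 and 1.64 ± 0.079, and the transcription factor Sox4 by 2.09 ± 0.066. The keratins Krt8 and Krt18, shared with hepatocytes, changed by 1.504 ± 0.097 and 1.02 ± 0.078. Over the 5 defining cholangiocyte markers (Krt19, Krt7, Epcam, Sox9 and Spp1) the summed signal was 10638 to 11656 at 16 weeks and 2049 to 2281 at 5 weeks. Of these, 4 of 5 rose, and Sox9 was near 0 at both times (2.29 ± 1.45 at 16 weeks and 2.13 ± 1.68 at 5 weeks, SD, n = 3).

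Extracellular matrix genes rose broadly. Of 33 measured 21 rose and 12 were not called as deposited, 19 rose after quantile normalization, and 10 rose and 1 fell after median centring, with a median of 1.24. Col1a1, the main chain of fibrillar collagen I, had 2314, 2539.5 and 2409 at 16 weeks, against 545, 469 and 424 at 5 weeks (log2 change 2.31 ± 0.11, adjusted p = 0.000192). Col1a2, its partner chain, changed by 1.44 ± 0.087, Col4a1 of basement membranes by 1.35 ± 0.083, and the filament-associated Col12a1 by 1.84 ± 0.16. Loxl1, a crosslinking enzyme of elastic fibres, changed by 2.65 ± 0.31 and elastin, Eln, by 1.52 ± 0.10. The laminin chains Lamb1 and Lamc1 changed by 2.14 ± 0.18 and 1.33 ± 0.085, the proteoglycans Vcan and Dcn by 1.83 ± 0.48 and 1.42 ± 0.069, and Postn, a matricellular protein, by 2.09 ± 0.34.

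Stellate cell and myofibroblast markers rose in 8 of 17 genes and 9 were not called (7 rose after quantile normalization, 4 rose and 1 fell after median centring), with a median of 0.997. Without 5-week array 3, 1 member was called lower. Acta2, smooth muscle actin of activated stellate cells, had 971, 1005 and 1161 at 16 weeks, against 214, 259.8 and 336 at 5 weeks (log2 change 1.91 ± 0.18, adjusted p = 0.00124). Tagln, an actin-binding protein of contractile cells, had 1356, 1286 and 1309.9 at 16 weeks, against 132, 216 and 63.3 at 5 weeks (log2 change 3.26 ± 0.39, adjusted p = 0.00277). The 5-week arrays of Tagln varied more among themselves than those at 16 weeks, and the times did not overlap. Cygb, a globin of stellate cells, changed by 1.54 ± 0.15, while Lrat, which stores retinoid in quiescent stellate cells, had a log2 change of -0.27 ± 0.075 and was not called. The 6 defining markers summed to 4509 to 4878 at 16 weeks and 1976 to 2100 at 5 weeks, and 3 of 6 rose (Acta2, Tagln and Rgs5).

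Genes that regulate matrix followed in part. Of 19 matrix proteases and inhibitors 9 rose and 10 were not called (8 rose after quantile normalization, 6 rose and 1 fell after median centring), with a median of 0.99. Plat, the tissue plasminogen activator, changed by 2.06 ± 0.24. Mmp12, the macrophage elastase, had 1099, 1072 and 1067 at 16 weeks, against 165, 129 and 143 at 5 weeks (log2 change 2.76 ± 0.10, adjusted p = 0.00011). Timp1, an inhibitor of matrix metalloproteases, changed by 1.80 ± 0.14. Mmp7, matrilysin, changed by 2.00 ± 0.38, with an adjusted p of 0.0511 without 16-week array 3.

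In TGF-beta signalling, which drives fibrosis, 6 of 17 genes rose and 2 fell (3 and 2 under either other scaling), with a median of 0.89. Among ligands, Tgfb3 changed by 1.95 ± 0.10 and Tgfb2 by 1.26 ± 0.11, whereas Tgfb1 had 677, 606 and 597 at 16 weeks, against 352, 294 and 275 at 5 weeks and came just short of a 2-fold rise (log2 change 0.997 ± 0.12, adjusted p = 0.00279). Without 5-week array 1, 16-week array 2 or 16-week array 3, Tgfb1 passed (1.09, 1.02 and 1.03). Ltbp1, which tethers latent ligand to matrix, changed by 1.77 ± 0.095. The receptor Tgfbr2 changed by 1.46 ± 0.33, adjusted p = 0.0244, and its adjusted p was 0.0702, 0.0764 and 0.0723 without 16-week arrays 1, 2 and 3. Among targets, Ccn2, connective tissue growth factor, had 2987, 2941 and 2923 at 16 weeks, against 418, 316 and 345 at 5 weeks (log2 change 2.99 ± 0.12, adjusted p = 0.000117). Tgfbi, a secreted TGF-beta target, fell by 1.27, and Inhba, the activin A subunit, fell by 1.21.

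Mast cell genes rose in 9 of 13 measured and 4 were not called (7 rose under either other scaling), with a median of 1.40. The 4 not called were Kit (-0.47), Hdc (-0.033), Mcpt4 (0.53) and Tpsb2 (0.99). Cpa3, the mast cell carboxypeptidase, had 1470.5, 1235 and 1389 at 16 weeks, against 289, 263 and 294 at 5 weeks (log2 change 2.21 ± 0.099, adjusted p = 0.00016). Cma1, a chymase, had 580.0, 619.7 and 636 at 16 weeks, against 50.7, 64.5 and 110.3 at 5 weeks (log2 change 2.84 ± 0.24, adjusted p = 0.000948). All 16-week arrays were above all 5-week arrays. The proteases Mcpt10 and Mcpt2 changed by 2.81 ± 0.12 and 2.57 ± 0.12, and the IgE receptor chains Ms4a2 and Fcer1a by 1.92 ± 0.23 and 1.40 ± 0.14. The 4 defining markers (Cpa3, Cma1, Mcpt2 and Tpsab1) summed to 3725 to 4023 at 16 weeks and 602 to 773 at 5 weeks.

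Macrophage genes were divided. Of 23 measured 5 rose and 2 fell (5 and 1 after quantile normalization, 4 and 2 after median centring), with a median of 0.31. Clec4f, a lectin restricted to resident Kupffer cells in rodents, had 1709.5, 1638 and 1519 at 16 weeks, against 6000.2, 6206.5 and 6188 at 5 weeks (log2 change -1.91 ± 0.079, adjusted p = 0.000133). Cd5l, another protein of resident macrophages, changed by -1.10 ± 0.079 and was not called after quantile normalization. Trem2, a lipid receptor of recruited and scar-associated macrophages, had 146, 102 and 132 at 16 weeks, against 6.25, 6.19 and 4.61 at 5 weeks (log2 change 2.71 ± 0.14, adjusted p = 0.000198). Gpnmb, a glycoprotein of lipid-laden macrophages, changed by 1.74 ± 0.072, and the monocyte receptor Ccr2 by 1.18 ± 0.14. The general marker Cd68 had 2377 ± 84 at 16 weeks and 1943 ± 66.7 at 5 weeks (SD, n = 3) and was not called. The measured defining markers Cd68, Clec4f, Cd163 and Adgre1 summed to 5466 to 5783 at 16 weeks and 9364 to 9683 at 5 weeks. Clec4f carries that lower sum, since Cd68 and Adgre1 (1183 ± 58.8 at 16 weeks and 890.0 ± 35.8 at 5 weeks) had higher means at 16 weeks and Cd163 a lower one (400.2 ± 28.2 at 16 weeks and 522 ± 46.5 at 5 weeks, SD, n = 3), all 3 without a call.

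Of 26 chemokines and their receptors 12 rose and 1 fell (8 and 1 after quantile normalization, 9 and 2 after median centring), with a median of 0.75. Ccl2, which recruits monocytes through CCR2, had 1091, 1063 and 1073 at 16 weeks, against 239.6, 216 and 179.5 at 5 weeks (log2 change 2.27 ± 0.12, adjusted p = 0.00022). Ccl20, an epithelial chemokine for CCR6-bearing cells, had 297, 269 and 302 at 16 weeks, against 9.11, 20.4 and 13.5 at 5 weeks (log2 change 3.35 ± 0.15, adjusted p = 0.000164). Cx3cl1, fractalkine, changed by 2.14 ± 0.14, Cxcl16 by 1.73 ± 0.071, and the lymphoid chemokines Ccl21 and Ccl19 by 1.93 ± 0.081 and 1.56 ± 0.10. Cxcl12, a stromal chemokine, changed by -1.62 ± 0.081 at its brightest probe set. Its 2 other probe sets above the 40th percentile were not called (-0.15 and -0.28).

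Neutrophil, lymphocyte and antigen presentation genes were read from separate lists. Of 9 neutrophil genes 4 rose, Lcn2, Cxcl2, Cxcr2 and Csf3r, and the defensin RatNP-3b fell (3 and 1, and 2 and 2, under the other scalings). The defining neutrophil markers S100a8 and S100a9 summed to 4440 to 4594 at 16 weeks and 5708 to 5886 at 5 weeks. Cxcr2 was not called without 5-week array 1 or 2 or without 16-week array 1 or 3, with adjusted p of 0.0605, 0.0595, 0.0647 and 0.0671. Csf3r was not called without 5-week array 3 (0.98), and without that array 2 neutrophil genes fell. Of 19 lymphocyte genes Cd4 rose (1.16 ± 0.084) and the granzyme gene Gzma fell by 1.47. These shares are near the 7.71% and 3.24% of all genes called higher and lower. Under either other scaling 0 rose and 2 fell. Of 6 MHC class II genes 0 were called by limma, 5 were higher at an unadjusted p under 0.05, and Cd74, the invariant chain, had a log2 change of 0.28 ± 0.069, adjusted p = 0.0316. Of 25 interferon response genes 2 fell, Mx2 at 1 of its probe sets and Oas1b (-1.37 ± 0.15), with a median of -0.19, and 4 fell after median centring.

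In endothelium, Vwf, a glycoprotein of vessels other than sinusoids, had 802, 757 and 756 at 16 weeks, against 243, 284 and 225 at 5 weeks (log2 change 1.57 ± 0.11, adjusted p = 0.000448). Stab2, a scavenger receptor of sinusoids, changed by -1.11 ± 0.14 and Kdr, a VEGF receptor, by -1.31 ± 0.094. Vwf was higher and Kdr and Stab2 were lower in all 3 arrays at 16 weeks, and these were the 3 called of 17 genes. After quantile normalization 1 rose and 3 fell, and after median centring 1 rose and 6 fell. Stab2 was not called without 16-week array 2 (-0.98). The median of the 17 genes was 0.20 as deposited. The measured sinusoidal markers Stab2, Lyve1 and Pecam1 summed to 3541 to 3710 at 16 weeks and 6327 to 6783 at 5 weeks. Lyve1 carries most of that lower sum, with 2636 ± 113 at 16 weeks and 5016 ± 281 at 5 weeks (SD, n = 3), without a call as deposited. Pecam1 had a higher mean at 16 weeks (521 ± 47.6) than at 5 weeks (455 ± 91.7) and was not called.

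Calls among proliferation genes depended on the scaling. Of 24 genes of mitosis and G2/M 4 rose (Melk, Kif23, Mki67 and Ccna2), with a median of 0.65, and 19 were higher at an unadjusted p under 0.05. Mki67, the proliferation antigen Ki-67, had 784, 723 and 708 at 16 weeks, against 341, 315 and 334 at 5 weeks (log2 change 1.12 ± 0.081, adjusted p = 0.000547). Cdk1, the mitotic kinase, had a change of 0.65 ± 0.091, adjusted p = 0.00498, which is below 2-fold. Of 24 genes of G1/S and replication, Ccnd1, cyclin D1 (1.05 ± 0.091), whose 2 other probe sets gave 1.53, called, and 0.43, not called, and Mcm3, a subunit of the replicative helicase (1.10 ± 0.14), rose, with a median of 0.57, a share near the 7.71% of all genes called higher. After quantile normalization 0 mitotic genes were called and of the G1/S genes only Ccnd1, and after median centring 0 of either list were called, with medians of 0.29 and 0.20. Without 5-week array 3, Ccna2 and Mcm3 were not called (0.97 and 0.96).

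Of 17 p53 targets and DNA damage genes 0 were called by limma, with 4 higher and 4 lower at an unadjusted p under 0.05 and a median of 0.081. After median centring 2 were called lower, and without 5-week array 1, 1 was called higher. Cdkn1a, the cell cycle inhibitor p21, had 4038, 4120.1 and 3865 at 16 weeks, against 6631, 6658 and 6764 at 5 weeks (log2 change -0.74 ± 0.070, adjusted p = 0.00134). It was lower in all 3 arrays at 16 weeks by less than 2-fold, and past 2-fold after median centring, where it was called. Its second probe set had a log2 change of -0.13 as deposited. Mdm2, the ligase that restrains p53, had 1802, 1781 and 1879.6 at 16 weeks, against 1310, 1299.7 and 1294 at 5 weeks (log2 change 0.48 ± 0.069, adjusted p = 0.00531). Its 2 other probe sets were not called either (0.72 and 0.84).

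Stress and immediate early genes gave partial responses. Of 23 genes of endoplasmic reticulum and amino acid stress 6 rose (5 and 4 under the other scalings), with a median of -0.023. These were Atf3, Ddit4, Trib3 and the amino acid enzymes Phgdh, Psat1 and Asns, which make serine and asparagine. Phgdh had 541, 542 and 609 at 16 weeks, against 119, 62.6 and 83.8 at 5 weeks (log2 change 2.51 ± 0.21, adjusted p = 0.000859), Psat1 changed by 2.12 ± 0.090 and Asns by 2.03 ± 0.079. Of 19 immediate early genes 6 rose and 1 fell (7 and 1, and 2 and 1, under the other scalings), with a median of 0.75. Fos and Myc, transcription factors of growth stimulation, changed by 1.57 ± 0.13 and 1.35 ± 0.14, and the phosphatase Dusp1 fell by 1.09, with its second probe set not called (-0.33).

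Genes used by most cells moved little. Of 44 cytosolic ribosomal protein genes 0 were called by limma, 22 were higher at an unadjusted p under 0.05, and the median was 0.22 as deposited, 0.57 after quantile normalization and -0.15 after median centring. Of 35 genes of the respiratory chain and ATP synthase 0 were called, 32 were lower at an unadjusted p under 0.05, and the median was -0.33, -0.031 and -0.70. Of 15 housekeeping genes 0 were called, with 4 higher and 6 lower at an unadjusted p under 0.05 and a median of -0.0013. Gapdh had a log2 change of -0.040 ± 0.069 and Actb of 0.082 ± 0.069. Erythroid and blood genes gave 0 calls of 8, with 1 higher and 3 lower at an unadjusted p under 0.05.

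**Figure D4:**
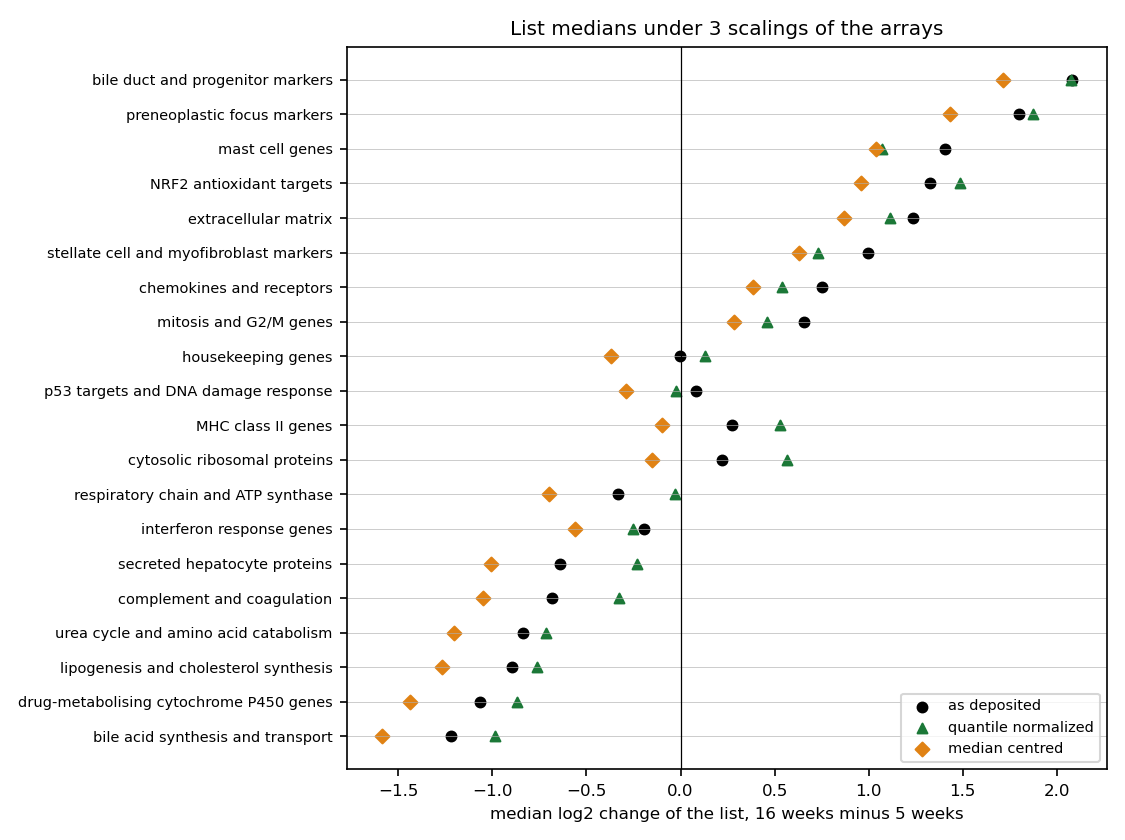
Median log2 change at 16 weeks minus 5 weeks for 20 gene lists, with signals as deposited (black circles), after quantile normalization (green triangles) and after centring each array on its median (orange diamonds). The medians of the bile duct, focus, mast cell, NRF2 and matrix lists stay above 0 and those of the metabolic lists below 0 under all 3 scalings, while those of the p53, MHC class II, ribosomal and housekeeping lists change side.

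The levels of these genes at the times between and after are given as deposited. They are a description without a test, since they share the 5-week arrays. These times also differed in median array signal, with means of 137, 169 and 145 at 8, 12 and 18 weeks. Their mean Gapdh 3' to 5' ratios were 2.12, 1.23 and 1.32. The part of scaling and RNA quality in the courses below was not tested. Relative to 5 weeks, the 1072 genes that rose were past 2-fold in the same direction for 133 (12.4%) at 8 weeks, 664 (61.9%) at 12 weeks and 588 (54.9%) at 18 weeks. Against 5 weeks their median change was 0.43 after 8 weeks and 1.16 after 12, then 1.46 and 1.07 after 16 and 18 weeks. For the 451 that fell the counts were 34 (7.54%), 252 (55.9%) and 267 (59.2%) at 8, 12 and 18 weeks, with medians of -0.32, -1.08, -1.31 and -1.11 at 8, 12, 16 and 18 weeks. The 16-week medians were part of choosing these genes and are extreme by that choice.

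Single genes took different courses across the 5 times. Cyp2c11 had mean signals of 21262, 14276, 682, 179 and 169, with most of its fall between 8 and 12 weeks. Gstp1 had 3360.5, 13914, 26105, 20328 and 24170 and was highest at 12 weeks. Akr1b7 had 87.6, 192, 2094, 6963 and 2458 and Krt19 had 211, 296, 1061, 2472 and 1355, both highest at 16 weeks. Clec4f had 6131.5, 6088, 4987, 1622 and 4459, so its 18-week mean was nearer to 5 weeks than to 16 weeks. Mx2 had 1119, 1126, 3785, 51.9 and 1391, with 16 weeks below every other time. Acot1 had 14.6, 20.9, 25.2, 468 and 322 and was low until 12 weeks.

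**Figure D5:**
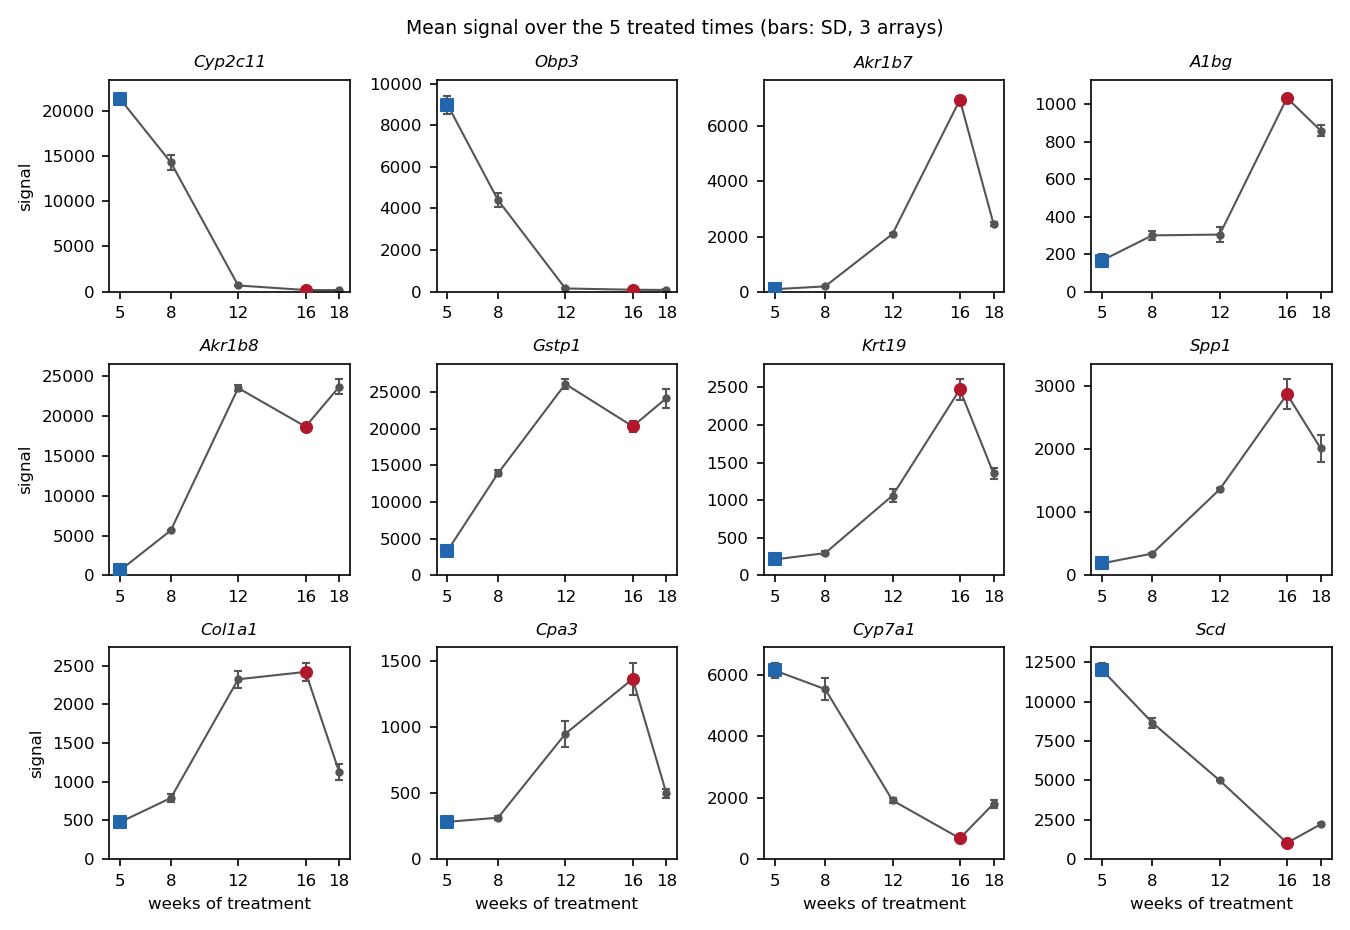
Mean signal ± SD (3 arrays) of 12 genes at the 5 times between 5 and 18 weeks of diethylnitrosamine, on linear axes that start at 0, with 16 weeks as a red circle and 5 weeks as a blue square. Cyp2c11, Obp3, Cyp7a1 and Scd are lower at 16 weeks than at 5, and the other 8 genes are higher. Of these 8, Akr1b7, A1bg, Krt19, Spp1, Col1a1 and Cpa3 have a lower mean at 18 weeks than at 16. Akr1b8 and Gstp1 have a higher one.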

How the data were processed

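Liver RNA (5 micrograms per array, per the labels) was hybridised to Affymetrix Rat Genome 230 arrays, and GCOS 2.0 is named in the submitters' processing notes. The deposited values are linear intensities, 1 per probe set and array, scaled between arrays by the authors to a target not given in the sources used here. No detection calls or scanner files were used, so no bound is given for dim probe sets. Gene names came from the deposited workbook, whose values differed from the value table by at most 0.10, updated through RefSeq where a match was found. Of 31099 probe sets 57 were controls, 19885 named 1 gene, 23 several and 11134 none. The 19885 covered 13901 genes, each read at its probe set with the highest mean signal.

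Signals were converted to log2(signal + 16) and fitted with limma 3.58.1 (lmFit and eBayes, R 4.3.3) over 31042 probe sets of the 6 arrays, with Benjamini-Hochberg adjustment over all of them. The fitted errors printed after a log2 change are standard errors, and single signals are given per array. All adjusted p values are limma's. An exact permutation test of 3 arrays against 3 cannot go below 0.1 (two-sided) and was not used. On simulated data with the same probe sets, 93 of 100 changes of 1.5 and 100 of 100 changes of 2.5 (log2) were recovered, with 5 false calls among 31042. All changed probe sets were above the 40th percentile of mean signal and in a middle range of 5-week signal. Recovery was therefore not tested for dim or for the brightest probe sets. Of the 1072 genes that rose, 523 had a 5-week mean signal below 99.8, so the recovery rate does not extend to them. Tables were handled with Python 3.11.15 and pandas 2.3.3.

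The genes named are the 12 highest and 12 lowest changes among called genes that do not overlap between times and reach a mean signal of 200 in the higher time, provisional symbols left out, up to 4 called members per list and direction, and a fixed set of genes, 169 in all. Members and the 41 lists were chosen with earlier results of these data known. Defining markers of cell types come from a separate marker list. The other list members named, such as Gclm, Hmox1, Col4a1, Krt7, Cyp2e1 and Otc, were picked after their values were seen. Alternatives changed the scaling, the pseudocount, the filter, the arrays and groups in the fit, the variance model, the probe set rule, the fold threshold and the pairing. Some members of the lists are counted but not reported by name here.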

Additional observations from a re-analysis of the deposited data

How the results depend on the processing

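As deposited, 2161 probe sets were higher and 695 lower at 16 weeks, and 1072 genes were higher and 451 lower. Counts of calls moved by over 1.5 times under these settings only. Quantile normalization left 1321 probe sets higher, median centring 1081 higher and 1731 lower (genes 585 and 1029), and a pseudocount of 64 left 1209 probe sets higher. With no fold threshold 6523 probe sets were higher and 2791 lower (genes 3283 and 1806), and at 3-fold or more 804 and 210 (genes 444 and 134). Scaling moved the median of all genes by -0.16 (quantile) and -0.37 (centring), so list counts are to be read beside that shift. Leaving out 1 array in turn gave 1875 to 2328 probe sets higher and 693 to 714 lower, and 963 to 1141 genes higher and 440 to 455 lower. Of 159 named genes called, 0 changed direction under any alternative run, 9 lost their call without some array, 20 after quantile normalization, 19 after median centring, 11 with a pseudocount of 64, 53 at 3-fold and 7 when all probe sets per gene were averaged. The cause was not tested. Among the named genes not called, Cdkn1a passed after median centring and Tgfb1 with a pseudocount of 1. Cidec was not called without 16-week array 3. Without 5-week array 2 or 16-week array 3, 2 genes of glucose handling rose. Whether the replicate numbers pair the arrays is not known. Deviations of same-numbered arrays from their group means correlated at 0.077, 0.002 and 0.121. The same-numbered array was the best match for 16-week arrays 1 and 3, and 16-week array 2 correlated best with 5-week array 3 (0.011). Deviations from a mean of 3 arrays depend on each other, so these small correlations cannot decide the question. With the numbers as a replicate block, 1935 probe sets were higher and 673 lower, and 983 genes were higher and 445 lower. The sizes of changes at low signal are limited, since no detection calls were used to say which probe sets were above background.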

Other observations

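Clock genes, which set daily rhythms in liver, moved in both directions, and the sources used here do not give the hour of sampling. Of 17 measured, 5 rose and 2 fell (3 and 3 after quantile normalization, 3 and 5 after median centring). The repressor Nr1d1 had 342, 474 and 315 at 16 weeks, against 88.9, 83.1 and 112 at 5 weeks (log2 change 1.82 ± 0.19, adjusted p = 0.00168 by limma). Every 16-week array was above every 5-week array. Bhlhe41 changed by 2.60 ± 0.20, Per3 by 2.14 ± 0.25, Cry1 by -1.38 ± 0.10 and Npas2 by -1.19 ± 0.14.

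Genes of 2 tissues that neighbour the liver gave few calls. Of 14 exocrine pancreas genes, the carboxypeptidase Cpa1 rose (2.13 ± 0.19) and the amylase Amy2a3 fell by 1.67. Over all genes 7.71% rose and 3.24% fell. Amy2a3 had 5387 ± 218 at 16 weeks and 17165 ± 184 at 5 weeks (SD, n = 3), and the tissue source of its signal was not tested. The 4 defining markers, without Amy2a3, summed to 544 to 612 at 16 weeks and 322 to 390 at 5 weeks. Among them Cpa1 and Cela1 had higher means at 16 weeks and Prss1 and Pnlip lower ones, and only Cpa1 was called. Of 9 adipocyte genes, Lpl, the lipoprotein lipase (2.64 ± 0.090), and Cidea (1.52 ± 0.092) rose and Cidec fell (-1.04 ± 0.088). The 3 defining adipocyte markers summed to 985 to 1207 at 16 weeks and 507 to 645 at 5 weeks, most of it from Cfd, whose log2 change of 0.86 was below 2-fold (limma adjusted p = 0.00424), and their part in the changes of Lpl and Cidea was not tested.

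4 genes outside the naming rule are given because their values stood out once seen. Inhbb, the activin B subunit, had 221, 346 and 329 at 16 weeks, against 6.16, 3.39 and 3.63 at 5 weeks. Aqp5, a water channel of secretory epithelia, had 806, 712 and 639.6 at 16 weeks, against 6.26, 64.2 and 50.9 at 5 weeks. Gpx2, an epithelial glutathione peroxidase, had 4201, 4448 and 4167 at 16 weeks, against 264, 286 and 268 at 5 weeks. Nrep, a regenerating-neuron protein, had 938, 921 and 861 at 16 weeks, against 11105, 10858 and 10108 at 5 weeks and was lower in all 3 arrays at 16 weeks, while the 3 others were higher in all 3.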
